A study of Mus musculus with 6 samples.

Results

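The genes described here belong to families known for enzymes that remove or add marks on histone lysines. They are the lysine demethylases (Kdm), the zinc-dependent deacetylases (Hdac), the NAD-dependent sirtuins (Sirt), and the SET-domain methyltransferases and their relatives (Setd and Kmt2). Not every member acts on histones, and other substrates are named below for some. Members were chosen by gene symbol, reached through the RefSeq accession that the array design gives for each probe, and a probe counted where both independent arrays of at least 1 group had it well above background. The symbol rule found 53 symbols, 51 of them protein-coding genes and 2 pseudogenes. Of these, 48 had a named probe and 42 passed the background filter, out of 10947 genes tested in all. The set thus holds methyltransferases as well as the demethylases, deacetylases and sirtuins.

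Deacetylases remove acetyl groups, which mark active chromatin, from histones and other proteins. Classes I, II and IV use zinc, while sirtuins consume NAD and so tie deacylation to the metabolic state of the cell. Most Kdm enzymes are Jumonji dioxygenases that need iron, oxygen and 2-oxoglutarate, and the methyltransferases take their methyl group from S-adenosylmethionine. In macrophages these enzymes are known for restraining or permitting inflammatory genes, with Hdac3 and Kdm6b (Jmjd3) as well-studied examples.

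The WGP group was bone-marrow-derived macrophages of C57BL/6 mice aged 6 to 8 weeks, which the labels call polarized M2, the alternatively activated state, kept 6 h in complete DMEM with WGP, and the medium group was the same cells kept 6 h in complete DMEM without WGP. WGP, whole glucan particles, are yeast cell wall particles rich in beta-glucan. The labels name neither the polarizing agent nor the number of mice or cultures, so each p-value reflects the spread among these arrays alone, which may be technical. Each group had 3 deposited files of a 1-colour (Cy3) Agilent array, but the raw spot signals of both replicate 3 files equalled those of replicate 1 at all 44397 spots. The processed signal of WGP replicate 3 was 1.3 times that of WGP replicate 1 to within 0.488%, and the pair was counted as 1 sample. In medium replicate 3 the processed signal was the average of medium replicates 1 and 2, to within 0.695%, and that file was left out, which leaves n = 2 arrays per group. This number limits the precision of every value below.

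Levels are given on the log2 scale after taking off each array's 75th percentile, so 0 stands for a probe as bright as that percentile, and changes are WGP minus medium on that scale. On the WGP and medium arrays, 44.96% to 46.6% and 46.5% to 50.6% of probes were well above background. Of 9 named macrophage markers, 9 were well above background on every array, among them Csf1r and Adgre1, and 3 rose while 3 fell with WGP. Of 8 markers of alternative activation, Arg1, Retnla, Ccl17 and Ccl22 were well above background on no array, and Mrc1 and Clec10a fell. Of B cell markers, Cd79a had levels of -2.95 and -2.95 on WGP arrays, against -1.64 and -2.19 on medium arrays, and Cd79b had -4.84 and -3.65, against -0.85 and -1.16. The erythroid marker Epor had levels of -2.82 and -4.09 on WGP arrays, against -0.22 and -0.66 on medium arrays. These 3 genes fell, but they passed the filter through the medium arrays alone. With WGP, Cd79b and Epor were well above background on no array and Cd79a on 1. Ms4a1, Alas2 and Hbb-bt were well above background on no array of either group. Summed levels of the fibroblast list were 3.51 and 3.59 with WGP, against 3.91 and 3.38 in medium, and within that list Col3a1 fell (-1.09, adjusted p = 0.00534 in limma) and was well above background only on the medium arrays. Those of the T cell list were 3.60 and 4.17, against 3.83 and 3.95, and those of the neutrophil list 4.32 and 4.29, against 4.56 and 4.25. Most of these sums came from 1 gene each, Cd3e (3.54 and 4.12, against 3.79 and 3.89) and Elane (3.99 and 4.04, against 4.03 and 3.88). Cd3d, Cd3g, Cd2 and Ltf were well above background on no array and Mpo on 1 array per group. Lck, S100a8, S100a9 and Camp were so on every array. No NK cell or mast cell marker cleared background on any array, and the part of other cells in the results below was not tested. In such bulk RNA, fewer cells of a type and less RNA per cell cannot be told apart.

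To show the sequences upstream of changed members, the 250 bases before the start site are printed for the largest rise among deacetylases, demethylases and sirtuins and for the largest falls among sirtuins and methyltransferases. They come from the RefSeq promoter table of build GRCm38.p6, at the start listed in the table's top row for the gene, 5′ to 3′ on the gene's strand, which is the minus strand for all 5. Capitals mark ACGTG or GCGTG on either strand, the core of the sites that hypoxia-inducible factors bind.
Hdac4 (chr1:92180342-92180591): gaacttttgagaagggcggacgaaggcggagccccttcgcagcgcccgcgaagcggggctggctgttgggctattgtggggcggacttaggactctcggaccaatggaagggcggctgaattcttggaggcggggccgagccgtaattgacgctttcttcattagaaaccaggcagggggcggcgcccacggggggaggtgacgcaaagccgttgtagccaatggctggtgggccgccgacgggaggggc
Kdm3a (chr6:71632918-71633167): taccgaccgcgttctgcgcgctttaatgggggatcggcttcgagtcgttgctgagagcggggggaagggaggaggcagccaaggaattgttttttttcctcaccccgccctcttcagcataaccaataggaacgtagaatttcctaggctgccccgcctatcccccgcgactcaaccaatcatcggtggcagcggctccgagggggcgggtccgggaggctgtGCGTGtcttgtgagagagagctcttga
Sirt1 (chr10:63339036-63339285): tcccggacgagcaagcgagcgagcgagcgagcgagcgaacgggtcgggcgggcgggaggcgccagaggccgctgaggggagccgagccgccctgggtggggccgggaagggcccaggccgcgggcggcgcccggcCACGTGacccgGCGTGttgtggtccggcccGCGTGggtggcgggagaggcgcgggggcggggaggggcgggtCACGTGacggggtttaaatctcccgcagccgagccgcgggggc
Sirt3 (chr7:140882310-140882559): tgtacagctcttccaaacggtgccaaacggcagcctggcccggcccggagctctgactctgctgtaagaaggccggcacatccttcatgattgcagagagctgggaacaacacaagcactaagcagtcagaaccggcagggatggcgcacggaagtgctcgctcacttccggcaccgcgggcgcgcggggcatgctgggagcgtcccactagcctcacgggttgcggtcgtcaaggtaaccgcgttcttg
Setd7 (chr3:51560824-51561073): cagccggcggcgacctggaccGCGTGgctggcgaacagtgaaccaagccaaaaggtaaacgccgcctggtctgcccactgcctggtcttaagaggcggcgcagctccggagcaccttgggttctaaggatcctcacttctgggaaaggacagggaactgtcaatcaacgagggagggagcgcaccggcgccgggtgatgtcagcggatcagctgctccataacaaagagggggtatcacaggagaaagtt

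The promoter table held 32 of the 42 tested members and 8 of the 11 that changed. ACGTG or GCGTG stood in 19 of the 32 member windows (59.4%) and in 38.6% of the 27025 gene windows of the table. That table also holds genes not tested here, and base composition was not matched, so no excess is read from these shares. The motif was present in the windows of 3 of 4 members that rose (Kdm3a, Kdm7a and Sirt1) and of 2 of 4 that fell (Kdm2b and Setd7). The full palindrome CACGTG, which contains ACGTG on both strands, occurred in 6.05% of all windows and, among changed members, in that of Sirt1. TGANTCA, the AP-1 site, was in 0 of these 8 windows and in 6.87% of all windows. Both strands were searched for each motif. These matches describe letters, not bound sites.

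Of the 42 members tested, 6 were higher and 5 lower with WGP at an adjusted p under 0.05 (limma, Benjamini-Hochberg over 10947 genes), or 26.2% against 40.6% of all genes tested. The 6 higher members make 14.3%, against 23.2% of all genes, and the 5 lower make 11.9%, against 17.4%. The order of the lower shares turned with the processing, to 21.4% of members against 18.1% of all genes with quantile normalization, 23.8% against 17.6% with normexp background correction, and 23.8% against 18.6% with only probes well above background on all arrays. No difference between members and all genes is therefore read from these shares. Those that rose were the deacetylases Hdac4 and Hdac1, the demethylases Kdm3a, Kdm7a and Kdm4b, and Sirt1. Those that fell were Sirt3, Sirt7, Hdac10, the demethylase Kdm2b and the methyltransferase Setd7. Changes of at least 2-fold were called in 5 members (Hdac4, Hdac10, Kdm2b, Sirt3 and Setd7), or 11.9% against 14.7% of all genes.

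The members' median change was -0.15, against 0.03 for all genes, and their median absolute change was 0.34, against 0.41. Median standard errors were alike, 0.120 for members and 0.123 for all genes. The groups' arrays did not overlap in 33 of 42 members (78.6%), against 75.1% of all genes, and the sign was the same on both slides in 39 of 42 members (92.9%), against 83.4% of all genes. Each slide carried 1 WGP and 1 medium array, with WGP at position 3 and medium at position 1 of both, so position and treatment cannot be told apart. With the slide, which is also the replicate number, as a block in the fit, 5 members were higher and 6 lower. These make 11.9% and 14.29% of members, against 20.75% and 16.63% of all genes. Hdac1 (adjusted p = 0.0519) and Sirt7 (adjusted p = 0.0578) lost their call in that limma fit, while Hdac8 (adjusted p = 0.0322) and Kdm8 (adjusted p = 0.0434) gained one as lower.

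When arrays were scaled to their median, the median change of all genes became 0.19 and that of the members 0.01. That scaling moves all genes alike, so the distance between these medians is -0.18 in both cases by construction. It was -0.11 with quantile normalization, -0.10 with normexp and -0.06 with the mean of a gene's kept probes. Under median scaling 10 members (23.81%, against 29.16% of all genes) were higher and 4 (9.524%, against 10.95%) lower. Sirt7 lost its call there (adjusted p = 0.245 in limma), and Kdm1a, Kdm1b, Setd1a and Setd5 gained one as higher. With 1 array left out, 1 group rests on a lone array, and fewer members and fewer of all genes passed. The distance between the medians of members and all genes then ran between -0.21 and -0.12. Hdac4, Kdm3a, Sirt3, Kdm2b and Setd7 passed the test under all 14 alternatives run. These alternatives are not independent checks, as the filter and block settings left the fitted changes of these genes as reported.

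**Figure D1:**
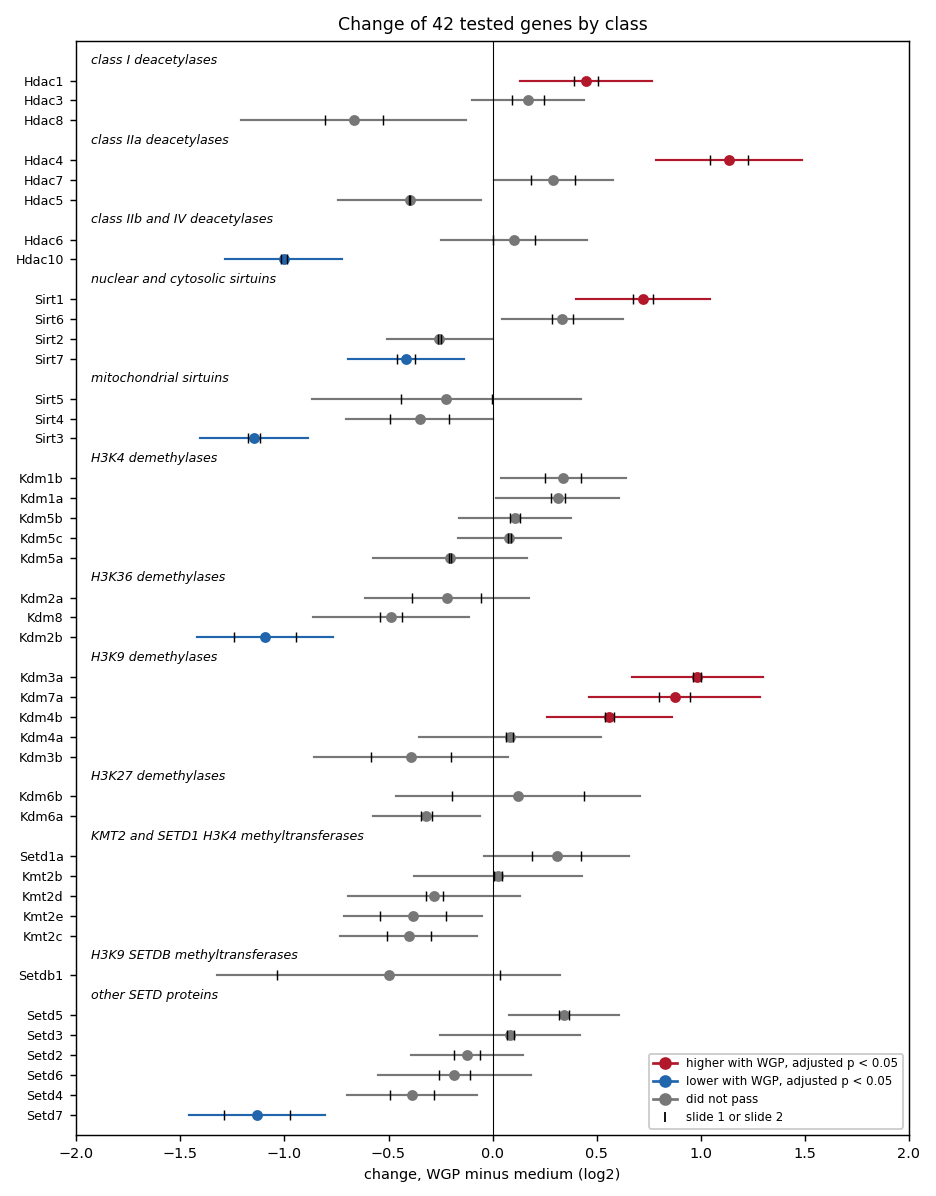
Change of each of the 42 tested members, WGP minus medium on the log2 scale, grouped by class (points: fitted change; lines: 95% confidence interval of the fit, not adjusted for the number of genes; black ticks: the change on slide 1 and on slide 2). The 6 red members rose and the 5 blue members fell at an adjusted p under 0.05, and the changes run between -1.15 for Sirt3 and 1.14 for Hdac4.

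**Figure D2:**
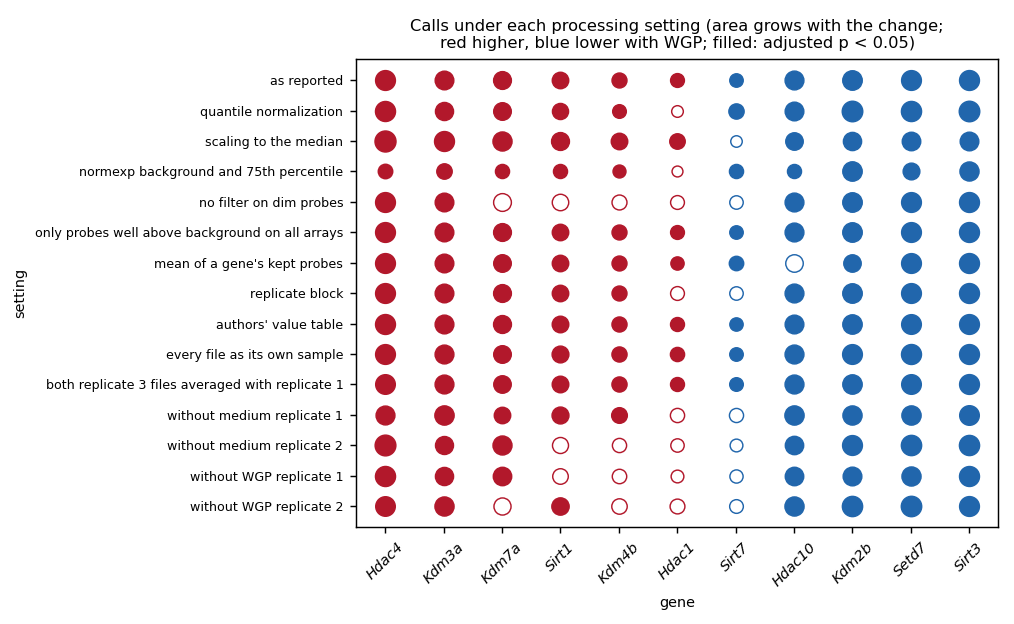
Calls of the 11 changed members as reported and under the 14 alternatives (columns: members, from the largest rise to the largest fall; area of a circle grows with the absolute change; red: higher, blue: lower with WGP; filled: adjusted p under 0.05; open: not passed). Hdac4, Kdm3a, Kdm2b, Setd7 and Sirt3 are filled in every row, and Hdac1 and Sirt7 are open in 8 and 7 rows.

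Among the class I deacetylases, most of which are catalytic subunits of nuclear corepressor complexes, Hdac1 rose, while Hdac3 and Hdac8 did not pass the test. Hdac1, the deacetylase of the Sin3, NuRD and CoREST complexes, had levels of 3.45 and 3.25 on the WGP arrays, against 2.94 and 2.86 on the medium arrays. The arrays of the groups did not overlap. Its change was 0.45 ± 0.12 (SE, n = 2 arrays per group, limma adjusted p = 0.0437), a 1.37-fold rise, and the changes of its 3 kept probes were 0.45, 0.43 and 0.32. This call lay close to the threshold and was lost on leaving out any 1 of the 4 arrays (adjusted p of 0.0864 to 0.193 in limma), with quantile normalization (0.142) and with normexp background correction (0.1475).

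Hdac3, the enzyme of the NCoR and SMRT complexes, had levels of -1.41 and -1.50 with WGP, against -1.66 and -1.60 in medium, a change of 0.17 ± 0.10 (SE) with a 95% interval of -0.099 to 0.44 (adjusted p = 0.233 in limma). Hdac8 had levels of -1.63 and -1.44 with WGP, against -1.10 and -0.63 in medium. The lower values all belong to WGP, but the medium arrays lay far apart, and the change of -0.67 ± 0.20 (SE) did not pass (limma adjusted p = 0.0602). The only probe of Hdac2 stayed below the background cutoff on every array.

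Class IIa deacetylases shuttle between nucleus and cytoplasm on phosphorylation and 14-3-3 binding and repress MEF2 factors. Hdac4 had the largest rise of all tested members. Its levels were 0.43 and 0.50 on WGP arrays, against -0.80 and -0.54 on medium arrays, a 2.20-fold rise (1.14 ± 0.13, SE, n = 2, adjusted p = 0.00644 in limma). The rise was 1.23 on slide 1 and 1.04 on slide 2. With normexp background correction, whose offset shrinks the changes of dim probes by construction, it was 0.51. That correction also gave smaller changes for Hdac10 (-0.47), Kdm3a (0.61), Kdm7a (0.48), Sirt1 (0.47), Kdm4b (0.37) and Setd7 (-0.75), all still past the test.

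The other class IIa members that were tested did not pass, and whether they differ from Hdac4 was not tested. Hdac7, which is abundant in the lymphoid and endothelial lineages, had levels of 0.43 and 0.33 with WGP, against 0.04 and 0.14 in medium (0.29 ± 0.10, SE, limma adjusted p = 0.0933). Hdac5 had levels of 4.07 and 3.89 with WGP, against 4.47 and 4.29 in medium (-0.40 ± 0.13, SE, adjusted p = 0.0703 in limma). Hdac9 stayed below the background cutoff on every array.

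In class IIb, Hdac10 fell and Hdac6 did not pass the test. Hdac10, a polyamine deacetylase, had levels of -0.53 and -0.45 on WGP arrays, against 0.46 and 0.57 on medium arrays. It was 2.01-fold lower with WGP (-1.004 ± 0.10, SE, n = 2, limma adjusted p = 0.00533), by 0.99 on slide 1 and 1.02 on slide 2. Its other kept probe read -1.41 and -0.26 with WGP, against -0.19 and -0.11 in medium, so that its WGP arrays lay far apart. With the mean of both probes the call was lost (-0.84, adjusted p = 0.0531 in limma). Hdac6, the tubulin deacetylase, had levels of 3.43 and 3.18 with WGP, against 3.23 and 3.18 in medium, and its groups overlapped (0.10 ± 0.13, SE, limma adjusted p = 0.558). The class IV enzyme gene Hdac11 stayed below the background cutoff on every array.

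Sirtuins went in different directions by member. Sirt1, the nuclear deacetylase of p53, FOXO factors and the NF-kappaB subunit RelA, had levels of 1.23 and 1.04 with WGP, against 0.46 and 0.36 in medium. It rose 1.65-fold (0.72 ± 0.12, SE, n = 2, adjusted p = 0.0145 in limma), with 0.77 on slide 1 and 0.67 on slide 2. Sirt1 no longer passed in limma when medium replicate 2 was left out (adjusted p = 0.0601), nor on dropping WGP replicate 1 (0.0704).

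Sirt3, the main deacetylase of the mitochondrial matrix, had the largest fall of all tested members. Its levels were 1.18 and 1.16 on WGP arrays, against 2.35 and 2.27 on medium arrays, a wide gap beside the spread within either group. It was 2.21-fold lower with WGP (-1.15 ± 0.095, SE, n = 2, limma adjusted p = 0.00353), and its change lay between -1.23 and -0.98 over the 14 alternatives. Sirt7, the nucleolar sirtuin, had levels of 3.58 and 3.62 with WGP, against 3.95 and 4.08 in medium. It was 1.33-fold lower (-0.42 ± 0.10, SE, n = 2, adjusted p = 0.0380 in limma), and the limma call was lost on leaving out any 1 of the 4 arrays (adjusted p of 0.0614 to 0.169).

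Sirt6, a chromatin deacetylase that restrains glycolytic and NF-kappaB target genes, had levels of 2.66 and 2.71 with WGP, against 2.27 and 2.42 in medium (0.34 ± 0.11, SE, limma adjusted p = 0.0699). Its other kept probe read -0.05. The cytosolic Sirt2 had levels of 2.55 and 2.57 with WGP, against 2.80 and 2.83 in medium, and did not pass (-0.26 ± 0.092, SE, limma adjusted p = 0.0932). The mitochondrial Sirt4, at -1.46 and -1.48 with WGP against -1.25 and -0.99 in medium, and the desuccinylase gene Sirt5, at -2.74 and -2.13 against -2.30 and -2.13, did not pass either (limma adjusted p of 0.0992 and 0.493). Sirt5 was the nearest member inside the background filter.

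**Figure D3:**
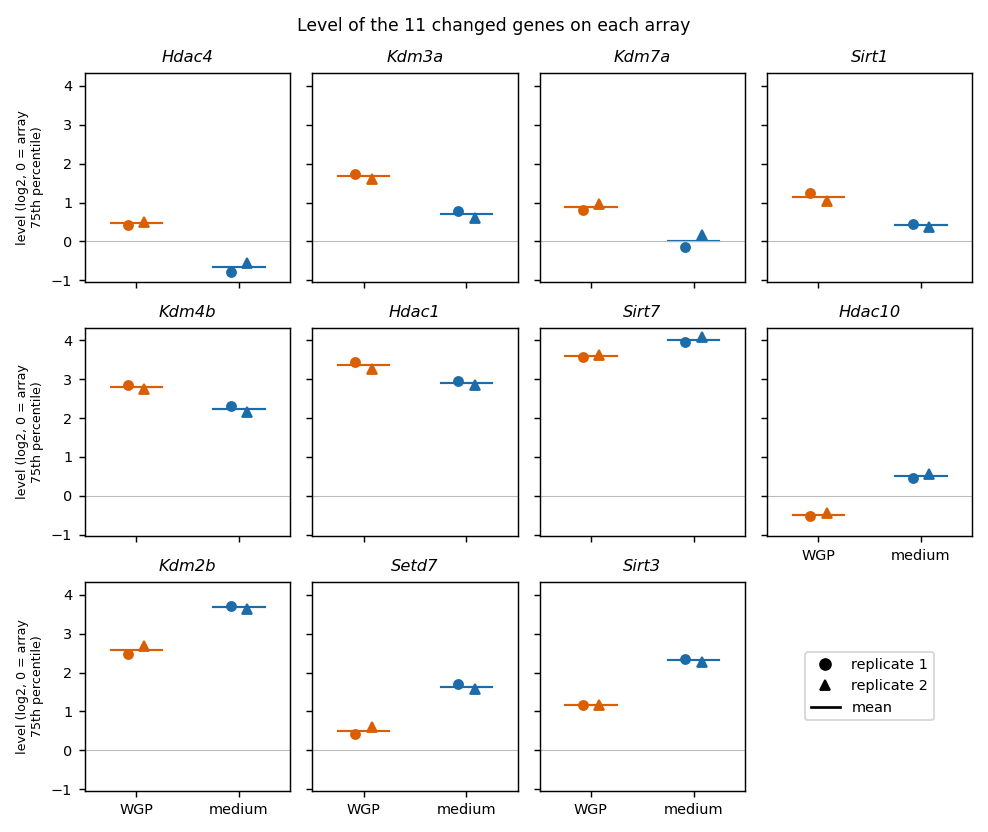
Level of the 11 changed members on each array, log2 of the processed signal with 0 at the array's 75th percentile (circle: replicate 1; triangle: replicate 2; line: mean of the group; WGP left, medium right, n = 2 each). In all 11 panels the WGP arrays lie on one side of the medium arrays, with the widest gaps for Sirt3, Hdac4, Setd7 and Kdm2b.

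Demethylases of H3K9, a mark of silent chromatin, included 3 of the 6 members that rose, among 5 tested, beside 23.2% of all genes, and a class of this size was not tested as such. Kdm3a, an H3K9 demethylase and a known target of hypoxia-inducible factors, had levels of 1.74 and 1.62 with WGP, against 0.78 and 0.61 in medium. It rose 1.98-fold (0.98 ± 0.12, SE, n = 2, limma adjusted p = 0.00694), by 0.96 on slide 1 and 1.00 on slide 2. Kdm7a, which acts on H3K9 and H3K27, had levels of 0.80 and 0.96 with WGP, against -0.15 and 0.16 in medium, a 1.83-fold rise (0.88 ± 0.15, SE, n = 2, adjusted p = 0.0162 in limma). Its other kept probe rose by a like amount (0.83 ± 0.15, SE), and Kdm7a no longer passed in limma when WGP replicate 2 was left out (adjusted p = 0.0683).

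Kdm4b, which is also known as a hypoxia target, had levels of 2.85 and 2.74 on WGP arrays, against 2.31 and 2.16 on medium arrays. It rose 1.475-fold (0.56 ± 0.11, SE, n = 2, limma adjusted p = 0.0223), which limma no longer called when medium replicate 2 was left out (adjusted p = 0.0727), nor on dropping WGP replicate 1 (0.110) or WGP replicate 2 (0.0776). Its paralog Kdm4a had levels of 2.13 and 1.85 with WGP, against 2.04 and 1.78 in medium, and these overlapped (0.08 ± 0.16, SE, limma adjusted p = 0.708). The other kept probe of Kdm4a read -2.88 and -3.33 with WGP, against -2.64 and -2.35 in medium, the opposite direction. Kdm3b had a change of -0.39 ± 0.17 (SE, adjusted p = 0.138 in limma). Kdm4c, at -3.86 and -3.83 with WGP against -4.12 and -4.11 in medium, and Kdm4d stayed below the background cutoff on every array. Among probes well above background, the lowest levels on the 4 arrays were between -3.36 and -2.97, and Kdm4c, the nearest member outside the filter, was below them on every array.

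The class listed here as demethylases of H3K36 included the largest fall among the Kdm genes. Kdm2b, a CXXC-domain protein that brings a variant Polycomb complex to unmethylated CpG islands, had levels of 2.48 and 2.69 with WGP, against 3.72 and 3.63 in medium. It was 2.13-fold lower (-1.09 ± 0.12, SE, n = 2, limma adjusted p = 0.00593), by 1.24 on slide 1 and 0.95 on slide 2. Its other kept probe fell by 0.57 ± 0.15 (SE). The paralog Kdm2a had levels of 0.14 and -0.19 with WGP, against 0.19 and 0.20 in medium, without passing (-0.22 ± 0.14, SE, adjusted p = 0.283 in limma), and its other kept probe read 0.49 ± 0.18 (SE). Kdm8 had levels of 0.00 and 0.26 with WGP, against 0.54 and 0.69 in medium, and a limma adjusted p of 0.0537.

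None of the 5 tested demethylases of H3K4, a mark of promoters and enhancers, passed the test. Kdm1a (Lsd1), the flavin-dependent demethylase of the CoREST complex, had levels of 1.81 and 1.73 with WGP, against 1.53 and 1.38 in medium (0.31 ± 0.11, SE, limma adjusted p = 0.0853). Kdm1b, at 0.47 and 0.47 with WGP against 0.22 and 0.04 in medium, had a limma adjusted p of 0.0747. Kdm5c had among the tightest values, 4.12 and 4.13 with WGP against 4.05 and 4.04 in medium, so that its 95% interval reached only 0.33 at the upper end and -0.17 at the lower. Kdm5b and Kdm5a had changes of 0.11 and -0.20, and the Y-linked Kdm5d stayed below the background cutoff on every array.

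Neither H3K27 demethylase passed the test. Kdm6b, which is known to be induced through NF-kappaB in macrophages treated with lipopolysaccharide and by IL-4 through STAT6, had levels of -1.95 and -1.87 with WGP, against -1.76 and -2.31 in medium. The medium arrays enclosed the WGP arrays. Its change of 0.12 ± 0.21 (SE, adjusted p = 0.677 in limma) had a 95% interval of -0.46 to 0.71, and the sign differed between the slides (-0.20 and 0.44). Kdm6a (Utx), which is X-linked, had levels of -1.98 and -1.91 with WGP, against -1.64 and -1.62 in medium, and missed the threshold (-0.32 ± 0.094, SE, limma adjusted p = 0.0598).

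Of the 12 methyltransferase genes tested in the Kmt2 and Setd families, Setd7 passed and 11 did not. Setd7, which monomethylates H3K4 and non-histone proteins, had levels of 0.42 and 0.59 on WGP arrays, against 1.71 and 1.57 on medium arrays. It was 2.19-fold lower with WGP (-1.13 ± 0.12, SE, n = 2, limma adjusted p = 0.00564), by 1.29 on slide 1 and 0.97 on slide 2. Setd5 had levels of 3.81 and 3.72 with WGP, against 3.45 and 3.40 in medium, just short of the threshold (0.34 ± 0.097, SE, adjusted p = 0.0539 in limma).

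The catalytic subunits of the COMPASS complexes, which methylate H3K4, did not pass the test on their brightest probes. Setd1a (0.31 ± 0.13, SE) and Kmt2b (0.03 ± 0.15, SE) were above 0, and Kmt2c (-0.40 ± 0.12, SE), Kmt2d (-0.28 ± 0.15, SE) and the Kmt2e relative (-0.38 ± 0.12, SE), which is held to lack this activity, were below it. In limma their adjusted p ran between 0.0619 and 0.892. Setd2, the H3K36 trimethylase, had a change of -0.12 ± 0.099 (SE), and Setd3, a histidine methyltransferase of actin, one of 0.08 ± 0.12 (SE). Setd4 had a change of -0.39 ± 0.11 (SE, limma adjusted p = 0.0591), and Setd6, which methylates RelA, of -0.18 ± 0.13 (SE). Setdb1, the H3K9 methyltransferase that silences retroelements, had levels of -1.76 and -0.97 with WGP, against -0.72 and -1.01 in medium, the widest spread of any tested member (-0.50 ± 0.30, SE). Kmt2a, Setd1b and Setdb2 had no probe that the reference table names, and are not analysed here.

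For 14 tested members more than 1 probe was kept, and in 4 of these (Kdm2a, Kdm4a, Sirt6 and Kmt2d) probes had opposite signs. Of the 11 changed members, 5 had several kept probes, all of the same sign, and 6 rested on 1 kept probe. Kmt2d is the clearest disagreement. Its brightest probe had levels of 0.69 and 0.89 with WGP, against 0.93 and 1.21 in medium, while another had 0.60 and 0.42 with WGP, against -0.10 and -0.26 in medium. That probe rose by 0.69 ± 0.13 (SE, limma adjusted p = 0.0189 over all kept probes), and the direction of Kmt2d is therefore uncertain. For Kmt2e, the second kept probe had 1.43 and 1.54 with WGP, against 2.31 and 2.27 in medium, a fall of 0.81 ± 0.10 (SE, adjusted p = 0.00826 in limma), larger than that of the brightest probe.

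**Figure D4:**
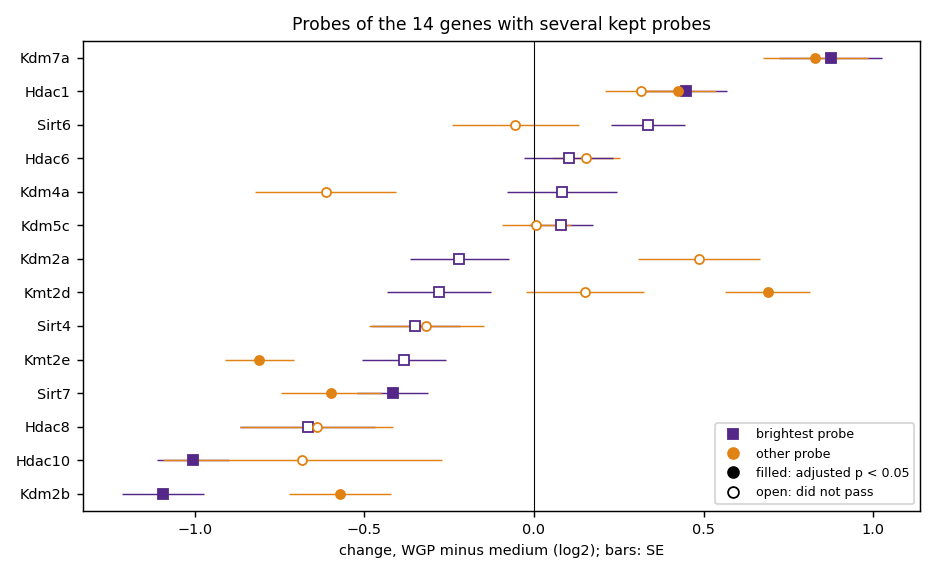
Change of every kept probe of the 14 members with more than 1, WGP minus medium on the log2 scale with SE (squares: the brightest probe, used for the gene; circles: other probes; filled: adjusted p under 0.05 over all kept probes). The probes of Kdm2a, Kdm4a, Sirt6 and Kmt2d lie on both sides of 0, and those of Kdm7a, Hdac1, Sirt7 and Kdm2b on one side.

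Genes that work with these enzymes were taken from 8 lists of textbook partners, whose counts stand beside 23.2% of all genes higher and 17.4% lower. Among subunits of the deacetylase corepressor complexes, 5 of 32 tested rose and 5 fell (median 0.06). The NuRD subunit gene Gatad2a had levels of 2.27 and 2.23 with WGP, against 1.36 and 1.28 in medium (0.93 ± 0.096, SE, limma adjusted p = 0.00533), and the mean of its kept probes gave 1.56. Tbl1x, a subunit of the NCoR complex of Hdac3, had 2.11 and 2.34 with WGP, against 3.18 and 3.14 in medium (-0.94 ± 0.12, SE, adjusted p = 0.00892 in limma).

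Among partners of the class IIa deacetylases, 6 of 16 tested rose and 2 fell (median 0.32). All 6 that rose were 14-3-3 genes (Ywhab, Ywhae, Ywhag, Ywhah, Ywhaq and Ywhaz), and they kept that direction under all 14 alternatives, but each of the 6 calls was lost on leaving out at least 1 array. Ywhag rose most, with levels of 1.32 and 1.14 with WGP, against 0.09 and 0.39 in medium (0.99 ± 0.15, SE, limma adjusted p = 0.0119), a call lost without WGP replicate 1. Mef2c, a transcription factor that these deacetylases repress, had levels of -2.01 and -2.35 with WGP, against 0.48 and 0.46 in medium. It was 6.29-fold lower (-2.65 ± 0.15, SE, adjusted p = 0.00187 in limma), but its change was -0.97 with normexp background correction, which shrinks changes of dim probes by construction.

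Genes of NAD supply and use, on which sirtuins depend, went both ways, with 4 of 12 tested higher and 3 lower (median -0.07). Nampt, the rate-limiting enzyme of NAD salvage from nicotinamide, had levels of 2.50 and 2.48 with WGP, against 0.79 and 1.03 in medium, a 2.98-fold rise (1.58 ± 0.12, SE, limma adjusted p = 0.00326). Naprt, of the parallel route from nicotinic acid, had 1.67 and 1.65 with WGP, against 2.77 and 2.62 in medium (-1.04 ± 0.10, SE, adjusted p = 0.00511 in limma), and was chosen after its values were seen. Kmo, of NAD synthesis from tryptophan, was not well above background on the WGP arrays (-3.07 and -5.13), against -0.33 and -0.82 in medium. It was at least 5.42-fold lower, the medium mean set against, per WGP array, either the signal of Kmo or the lowest signal among probes above background, whichever was higher. With normexp its change was -0.71, against -3.53 as reported. Kmo passed the filter through the medium arrays alone. The reported limma adjusted p was 0.0259, and the call was lost with no filter on dim probes and without medium replicate 1 or medium replicate 2.

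Among lysine methyltransferases outside the Setd and Kmt2 families, 5 of 23 tested rose and 4 fell (median -0.08). Kmt5a, the H4K20 monomethylase, had levels of 3.24 and 3.26 with WGP, against 0.89 and 1.18 in medium, a 4.65-fold rise (2.22 ± 0.13, SE, limma adjusted p = 0.00215). Smyd3 had 1.18 and 0.94 with WGP, against 2.34 and 2.61 in medium (-1.41 ± 0.15, SE, adjusted p = 0.00585 in limma). Of Jumonji proteins without a Kdm symbol, 2 of 10 tested rose and 4 fell (median 0.04). Jmjd6 had the largest rise (0.78 ± 0.12, SE, limma adjusted p = 0.0119), a call lost on leaving out either WGP array. Uty, the Y-linked relative of Kdm6a, passed the filter through the medium arrays alone and was not well above background with WGP. It was at least 1.62-fold lower (adjusted p = 0.0186 in limma). The Uty call was lost with normexp (change -0.03), with no filter on dim probes, without either medium array or without WGP replicate 2.

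Of histone acetyltransferases, which oppose the deacetylases, 0 of 14 tested rose and 2, the coactivator genes Ncoa1 and Ncoa3, fell (median -0.0006). Ncoa3 had levels of 4.79 and 4.91 with WGP, against 5.79 and 5.98 in medium (-1.03 ± 0.12, SE, limma adjusted p = 0.00672). Of COMPASS partner subunits, 3 of 13 tested rose and 0 fell (median 0.20), among them Wdr5, at 0.53 and 0.56 with WGP against 0.07 and 0.03 in medium (0.50 ± 0.093, SE, adjusted p = 0.0198 in limma), a call lost on leaving out any 1 of the 4 arrays. Of DNA methylation and hydroxymethylation enzymes, 1 of 7 rose and 1 fell (median -0.03). Uhrf1 was not well above background in medium (-3.97 and -3.05) and passed the filter through the WGP arrays alone. It was at least 1.90-fold higher (limma adjusted p = 0.0491). Tet2 changed by -0.72 ± 0.14 (SE, limma adjusted p = 0.0223). Both calls were lost under 7 alternatives, among them quantile normalization and leaving out medium replicate 1 or WGP replicate 1. The Uhrf1 call was also lost without WGP replicate 2, and that of Tet2 without medium replicate 2.

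**Figure D5:**
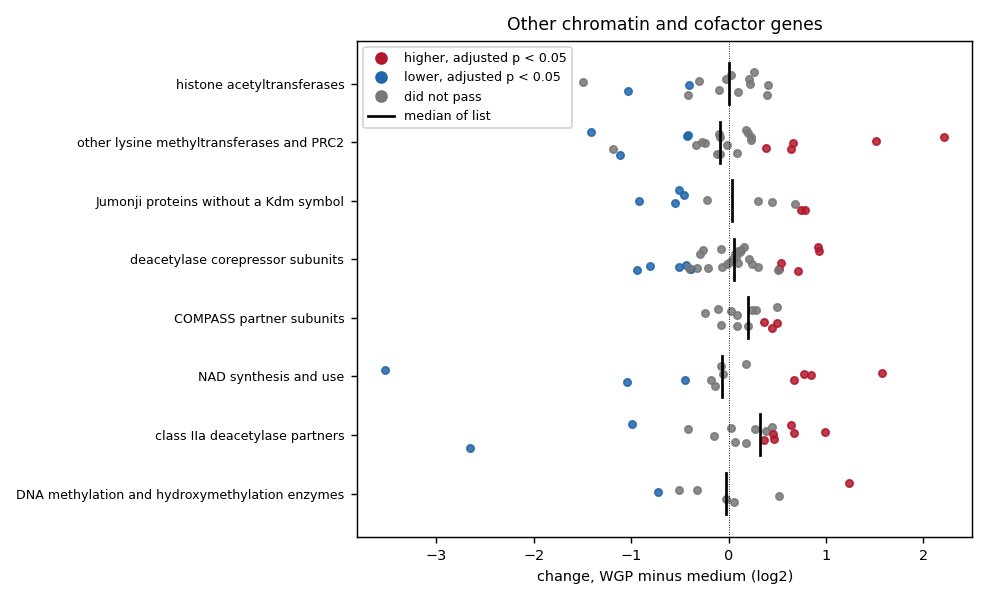
Change of each tested gene of the 8 partner lists, WGP minus medium on the log2 scale (red: higher, blue: lower with WGP at an adjusted p under 0.05; grey: did not pass; black bar: median of the list; vertical jitter has no meaning). Medians run between -0.08 and 0.32, while single genes such as Kmt5a (2.22), Nampt (1.58), Mef2c (-2.65) and Kmo (-3.53, not well above background with WGP) lie far from them.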

How the data were processed

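The submitters' processing notes name Agilent Feature Extraction 10.7.3 for these 1-colour arrays. From the authors' deposited scanner files, the intensity of each spot was taken as the processed signal, which is background-subtracted and not normalized between arrays. The flags (well above background, outlier) were used as deposited by the authors. A deposited table of log2 values, centred by the authors on an unstated baseline per probe, matched the scanner values at r = 0.9999 over 39390 probes after centring and served as an alternative only. Its column medians were 0.0997, 0.130 and 0.100 for WGP replicates 1 to 3 and -0.0145, 0.164 and 0.103 for medium replicates 1 to 3.

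Control spots (1377) and outlier spots (118 to 183 per array) were left out. Log2 signals minus the array's 75th percentile (56.1 and 59.2 with WGP, 68.6 and 85.8 in medium, in signal units) were averaged over a probe's spots. Of 39429 probes, 26761 were named by accession through a RefSeq table of GRCm38.p6. The array design is on mm9, so no probe coordinates are given. The brightest kept probe, with a share of at least 0.5 of its spots well above background, stood for a gene. Groups were compared with limma 3.58.1 (R 4.3.3; lmFit, eBayes) and Benjamini-Hochberg adjustment at 0.05. The code was tested on simulated data. Every adjusted p printed is limma's. The files hold no mean signal, so the planned normexp alternative (offset 50) used the median signal.

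Replicates 1 and 2 were also slides 1 and 2, per the file headers. Deviations from group means correlated at 0.14 between arrays of a slide, over 2 pairs. With 2 arrays per group these pairs mirror each other by construction, so they are not independent. Members, gene lists and alternatives were chosen with earlier results of these data known. Values on every array are given for members past the test with at least 2-fold change and for the largest rise and fall of each class, with others added for description, and the largest rise and fall of each partner list are named. Unnamed probes were not analysed here. Some marker genes are not reported here.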

Additional observations from a re-analysis of the deposited data

How the results depend on the processing

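With 6 members higher and 5 lower as reported, the counts moved by over 1.5 times under some of the 14 alternatives. Higher members numbered 10 with median scaling, 2 with no filter on dim probes, 13 with every file as its own sample and 10 with both replicate 3 files averaged with replicate 1. These make 23.81%, 4.167%, 30.95% and 23.81% of members, against 29.16%, 4.415%, 37.59% and 27.31% of all genes. Lower members numbered 9 with quantile normalization, 10 with normexp, 10 with only probes well above background on all arrays (against 1976, 1925 and 1834 lower among all genes, and 1902 as reported), 18 with every file as its own sample and 12 with both replicate 3 files averaged. The last 2 settings put 42.86% and 28.57% of members lower, against 30.48% and 20.63% of all genes. These 2 settings mix copies of arrays into the samples, which shrinks the spread by construction. All changed genes numbered 4441 as reported, 1532 of 20274 with no filter (more genes tested) and 7452 with every file as its own sample. With no filter, with every file and with both replicate 3 files averaged, the share of members changed (12.5%, 73.8% and 52.4%) exceeded that of all genes (7.56%, 68.1% and 47.9%), against 26.2% and 40.6% as reported. Leaving out 1 array gave 3 to 5 higher members, 4 to 5 lower members and 2255 to 3282 changed genes, fewest without WGP replicate 2, where the lone array is assumed to vary like the other group. Median scaling put 72.7% of changed genes higher, against 57.2% as reported. The replicate block changed 4091 genes in all. The numbers mark slides in the headers, and beside Hdac1, Sirt7, Hdac8 and Kdm8 the block changed no member's call. No named member past the test changed sign under any of the 14 alternatives. The cause of the other moves was not tested. On these arrays signal over background sets the limit, and the 6 members not well above background have no measured change. Adding every kept probe as its own feature, chosen after seeing the data, changed no call of a brightest probe.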

Other observations

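Hdac1 and Sirt7 had the smallest changes among the 11 changed members, and 14 of the 31 members that did not pass had an adjusted p between 0.05 and 0.1 in limma. Of these 31, 11 passed under 0 of the 14 alternatives, among them Kdm6b, Hdac6 and Kdm5c. The matching counts over all genes were not taken, so no trait of the members is read from these counts. The 6 members whose only probe was not well above background (Hdac2, Hdac9, Hdac11, Kdm4c, Kdm4d and Kdm5d) had levels between -5.53 and -3.83 over all 4 arrays.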
